A study of Homo sapiens with 12 samples.

Results

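The serpin A cluster is a run of related genes on human chromosome 14, taken here as the peaks that overlap chr14:94740000-95110000 on GRCh37, a window of 370.0 kb. It held 183 of the 273551 peaks on chromosomes 1 to 22 and X: 65 of H3K27ac, 102 of H3K4me1 and 16 of H3K4me3. Its 9 listed genes, in the order that RefSeq gives on GRCh38.p14, are SERPINA10, SERPINA6, SERPINA1, SERPINA11, SERPINA9, SERPINA12, SERPINA4, SERPINA5 and SERPINA3. The peaks come from untreated HepG2, a liver cancer cell line in long use, in which chromatin immunoprecipitation and sequencing (ChIP-seq) was run on 3 libraries for each of the 3 histone marks and 3 control libraries titled as input but labelled with an anti-mouse immunoglobulin. The lists used here pool the 3 libraries of a mark, so every value below is 1 value per mark with no spread between libraries, no difference was tested, and the depth is unknown. The control libraries gave no values here, so no background in them can be set beside the peaks. Whether marker genes of hepatocytes carry the marks in these lists was not analysed here.

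Serpins are proteins that trap the proteases they inhibit by a large change of shape, and several members of this cluster are plasma proteins secreted by the liver. SERPINA1 encodes alpha-1-antitrypsin, the main inhibitor of neutrophil elastase, and SERPINA3 encodes alpha-1-antichymotrypsin, an acute-phase inhibitor of cathepsin G. SERPINA5 (protein C inhibitor), SERPINA4 (kallistatin, an inhibitor of tissue kallikrein) and SERPINA10 (the protein Z-dependent inhibitor of coagulation factor Xa) also inhibit proteases, whereas SERPINA6 encodes corticosteroid-binding globulin, a hormone carrier. SERPINA12 encodes vaspin, described in fat tissue, and SERPINA9 is known from germinal centre B cells. H3K4me3 marks active gene starts, H3K4me1 marks enhancers and the surroundings of starts, and H3K27ac marks active elements of both kinds.

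Gene positions on the build of the peaks were at hand for 2 of the listed genes, whose spans came with the definition of the window: SERPINA1 (chr14:94843084-94857029, minus strand) and SERPINA3 (chr14:95078633-95090392, plus strand). The other 7 genes were not placed on that build here. Peaks outside these 2 spans are therefore given by position and were not assigned to single genes. RefSeq on GRCh38.p14 lists the pseudogene SERPINA2 and 4 non-coding loci among the 9 genes, and PPP4R4 as the next gene on the left. SERPINA4, SERPINA5 and SERPINA3 lie on the plus strand, and SERPINA10, SERPINA6, SERPINA1, SERPINA11, SERPINA9 and SERPINA12 on the minus strand.

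Promoter sequences are shown for both genes whose starts could be set against the peaks. Each is from RefSeq on GRCh38.p14 and runs from 250 bases before to 50 bases after the start, 5′ to 3′ on the strand of the gene. RefSeq lists 2 starts of SERPINA1, 2033 bp apart, called outer and inner here. Outer start is also used below for the edge of the SERPINA1 span on GRCh37. Whether the span starts of SERPINA1 and SERPINA3 match the RefSeq starts to the base was not checked. Capitals mark CpG dinucleotides, the sites of DNA methylation, which are dense at many promoters with strong H3K4me3.
SERPINA1 outer start (GRCh38.p14 chr14:94390586-94390885, minus strand): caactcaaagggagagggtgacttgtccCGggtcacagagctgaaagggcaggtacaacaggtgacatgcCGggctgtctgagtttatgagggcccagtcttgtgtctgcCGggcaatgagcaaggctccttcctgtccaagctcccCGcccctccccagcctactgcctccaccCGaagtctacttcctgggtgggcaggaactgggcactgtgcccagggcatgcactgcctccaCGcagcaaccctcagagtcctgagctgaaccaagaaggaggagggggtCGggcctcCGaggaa
SERPINA1 inner start (GRCh38.p14 chr14:94388553-94388852, minus strand): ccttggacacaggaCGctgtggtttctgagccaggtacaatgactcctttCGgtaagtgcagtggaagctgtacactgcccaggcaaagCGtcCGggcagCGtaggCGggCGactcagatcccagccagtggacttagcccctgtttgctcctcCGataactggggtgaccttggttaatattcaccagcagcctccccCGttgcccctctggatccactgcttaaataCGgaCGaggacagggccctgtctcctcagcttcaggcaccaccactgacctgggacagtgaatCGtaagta
SERPINA3 (GRCh38.p14 chr14:94612141-94612440, plus strand): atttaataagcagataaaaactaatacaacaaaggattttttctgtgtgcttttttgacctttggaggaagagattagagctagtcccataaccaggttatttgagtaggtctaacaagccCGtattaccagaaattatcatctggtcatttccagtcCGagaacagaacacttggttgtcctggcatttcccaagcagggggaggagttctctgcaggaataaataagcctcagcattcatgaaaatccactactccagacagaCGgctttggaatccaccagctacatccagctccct

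The inner start of SERPINA1 held 12 CpG dinucleotides in 300 bases, its outer start 8 and SERPINA3 3. The median over all 35116 RefSeq promoters of this length was 14, so each of these was below it. DNA methylation was not analysed here.

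**Figure D1:**
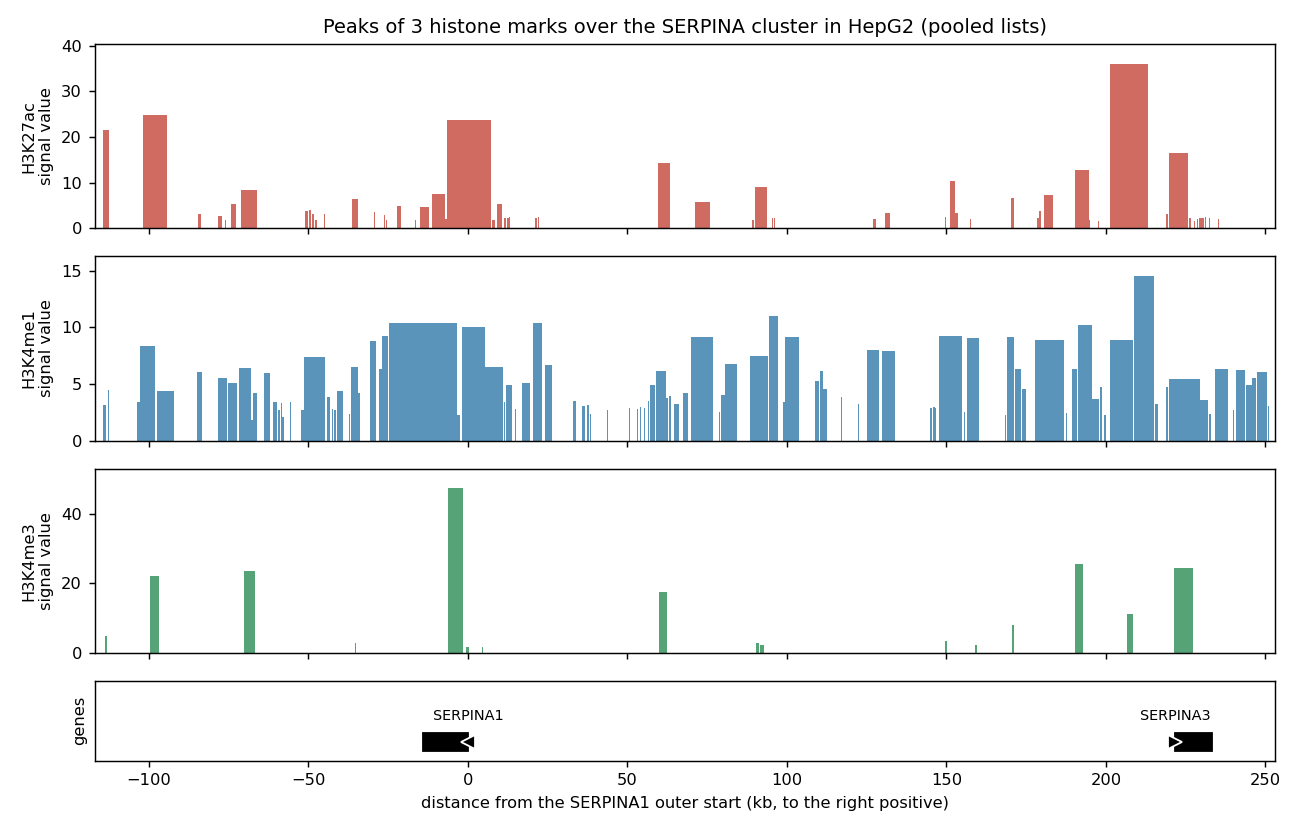
Peaks of each mark across the window, drawn at their width with the authors' signal value as height (a separate axis for each mark), against the distance from the outer SERPINA1 start in kb. Black boxes are the spans of SERPINA1 and SERPINA3, with an arrowhead at each start pointing in the direction of transcription; the other genes are not drawn. H3K4me1 covers 60.8% of the window, while the 16 H3K4me3 peaks cover 8.47%.

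The outer start of SERPINA1 and the start of SERPINA3 both lay in peaks of all 3 marks. At SERPINA1 this rests on 1 weak H3K4me3 peak, with a −log10 q-value of 3.33. With only peaks of at least 5, no H3K4me3 peak came within 1000 bp of that outer start, while SERPINA3 kept all 3 marks. Seen from these starts the marks were arranged differently. The inner start of SERPINA1 was not placed on the build of the peaks, so the marks were not measured from it. The strength of a peak is given as the signal value of the authors' peak caller, which can be compared only within the list of 1 mark, and as the share of that list with a lower value.

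SERPINA1 carried the strongest H3K4me3 peak of the cluster. It ran over chr14:94850627-94855459 (4833 bp) with a signal value of 47.3, higher than 81.6% of the H3K4me3 list. The next strongest of the window had 25.7. This peak did not reach the outer start of the gene: its near edge lay 1570 bp and its summit 2375 bp inside the gene. The outer start itself lay in a separate H3K4me3 peak, chr14:94856487-94857265 (779 bp), with a signal value of 1.67, higher than only 1.57% of the list. RefSeq places the inner start 2033 bp inside the outer one on its own build, a distance that falls between those of the near edge and the summit of the strong peak on GRCh37. The distances are set side by side, and no position was carried from one build to the other. A further weak H3K4me3 peak, chr14:94861291-94861702 (412 bp), with a signal value of 1.73, lay outside the gene.

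Acetylation at SERPINA1 was broad. The H3K27ac peak over chr14:94850605-94864298 (13694 bp) was the widest of the 2198 on chromosome 14, and 92 of the 66513 in the whole list were wider. Its signal value was 23.8, higher than 90.4% of the list, and its summit lay 2255 bp inside the gene. It reached 7269 bp beyond the outer start. Of the 13946 bp of SERPINA1, H3K27ac peaks covered 92.1%, H3K4me1 peaks 94.0% and H3K4me3 peaks 38.5%.

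H3K4me1 flanked the strong H3K4me3 summit of SERPINA1 but was not called at it. An H3K4me1 peak of 21238 bp, chr14:94832235-94853472, covered the far part of the gene and ground beyond its end, with a signal value of 10.4. It was the widest of the 6312 H3K4me1 peaks on chromosome 14, and 7 of the 182592 in the list were wider. After it came a weak peak of 848 bp, chr14:94853684-94854531, with a signal value of 2.28. On the other side, a peak of 7208 bp, chr14:94855153-94862360, covered the outer start with a signal value of 10.0, higher than 98.9% of the list. Between the last 2 lay a gap of 621 bp, chr14:94854532-94855152, from 2497 to 1877 bp inside the outer start, which held the H3K4me3 summit.

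**Figure D2:**
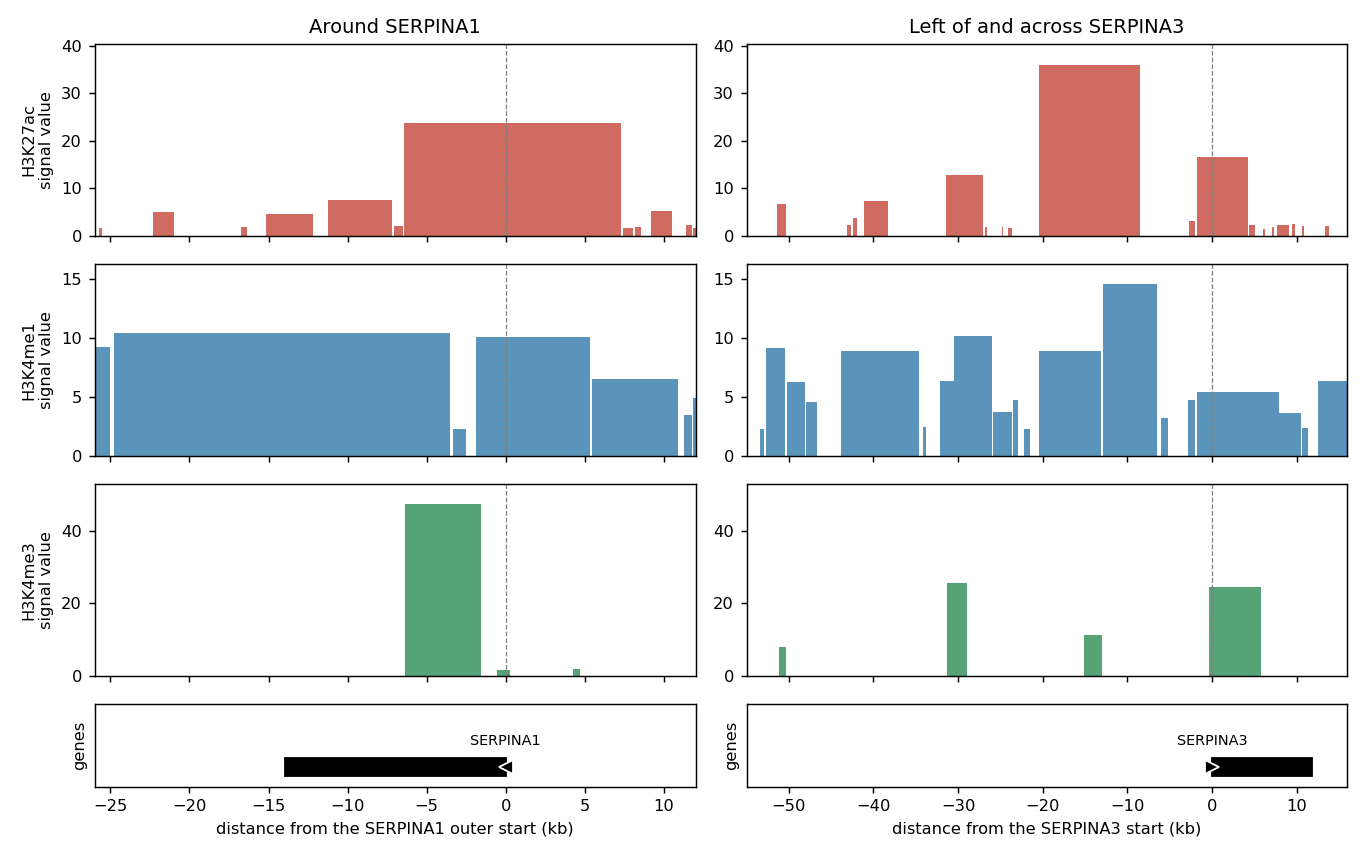
The same peaks near SERPINA1 (left) and left of and across SERPINA3 (right), as distance in kb from the start of each gene (dashed line), with the authors' signal value as height. The strong H3K4me3 peak of SERPINA1 (47.3) ends 1570 bp inside the outer start, and the strongest H3K27ac peak of the window (36.0) ends 8547 bp before the SERPINA3 start.

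At SERPINA3 the marks lay across the start. Its H3K4me3 peak, chr14:95078243-95084406, was the widest of the window at 6164 bp, and 8 of the 829 on chromosome 14 were wider. The signal value was 24.4, higher than 58.8% of the list, and the summit lay 362 bp downstream of the start. The H3K27ac peak over the start, chr14:95076839-95082880 (6042 bp), had a signal value of 16.5 and a summit 340 bp downstream. The H3K4me1 peak there was 9627 bp wide with a signal value of 5.42. Unlike at SERPINA1, the H3K4me3 summit lay inside it.

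The strongest acetylation of the cluster was not at either of these starts. The H3K27ac peak chr14:95058211-95070086 (11876 bp) had a signal value of 36.0, higher than 96.1% of the list, and ran from 20422 to 8547 bp before the SERPINA3 start. H3K4me1 peaks covered 98.0% of it. It contained an H3K4me3 peak, chr14:95063507-95065585 (2079 bp), with a signal value of 11.2, less than the 47.3 inside SERPINA1 and the 24.4 over the SERPINA3 start. The strongest H3K4me1 peak of the window, chr14:95065749-95072165 (6417 bp), shared 4338 bp with it and had a signal value of 14.5, rank 81 of 182592. Whether a gene starts in it was not analysed here.

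Other H3K4me3 peaks with acetylation lay on both sides of SERPINA1. To its left, H3K4me3 at chr14:94786745-94790408 had a signal value of 23.6 and at chr14:94757519-94760167 22.3. The H3K27ac peaks over them, chr14:94785978-94790804 and chr14:94755230-94762732, had 8.37 and 24.9. The H3K4me3 values were higher than 58.2% and 57.3% of their list, and the H3K27ac values higher than 74.3% and 91.2% of theirs. With pooled lists the spread of neither mark is known, and a relation between the marks was not tested.

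Between SERPINA1 and SERPINA3, H3K4me3 was strongest at chr14:95047290-95049697, with 25.7, the second highest of the window, under an H3K27ac peak (chr14:95047196-95051593) of 12.7. Next came chr14:94916929-94919575, with 17.6, under H3K27ac (chr14:94916670-94920489) of 14.3, then the peak of 11.2 in the strongest acetylation, and then chr14:95027420-95028353, with 8.02. An H3K27ac peak at chr14:94946896-94950873, with 9.13, overlapped only weak H3K4me3, chr14:94947276-94948364 with 2.82 and chr14:94948466-94949736 with 2.28. Weak H3K4me3 peaks were also called at chr14:95006435-95007182, with 3.48, and left of SERPINA1 at chr14:94821614-94822047, with 2.85.

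Strong H3K4me1 was also found in peaks that did not overlap H3K4me3. The second strongest H3K4me1 peak, chr14:94951339-94954252, had a signal value of 11.0 and overlapped H3K27ac without H3K4me3. The same held for chr14:94877494-94880197, with 10.4. The acetylation under both was weak. H3K27ac peaks of 2.17 and 2.19 covered 20.35% of the first, and peaks of 2.12 to 2.39 covered 42.5% of the second. The peak chr14:95048164-95052684, with 10.2, overlapped both other marks.

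The 65 H3K27ac peaks were mostly small. Their median signal value was 2.46, against 3.15 over the list, with a range of 1.42 to 36.0, and 3 of 65 (4.62%) were in the top 10.0% of the list. The 102 H3K4me1 peaks were stronger than their list, with a median of 4.32 against 3.42, and 27 of 102 (26.5%) were in its top 10.0%. The 16 H3K4me3 peaks had a median of 6.39 against 13.3, from 1.67 to 47.3, and 0 of 16 were in the top 10.0%. H3K4me1 peaks were also wide: 23 of 102 (22.5%) were wider than 3000 bp, against 5.35% of the list. For H3K27ac it was 11 of 65 (16.9%) against 11.9%, and for H3K4me3 3 of 16 (18.8%) against 18.5%, a share near that of the list.

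**Figure D3:**
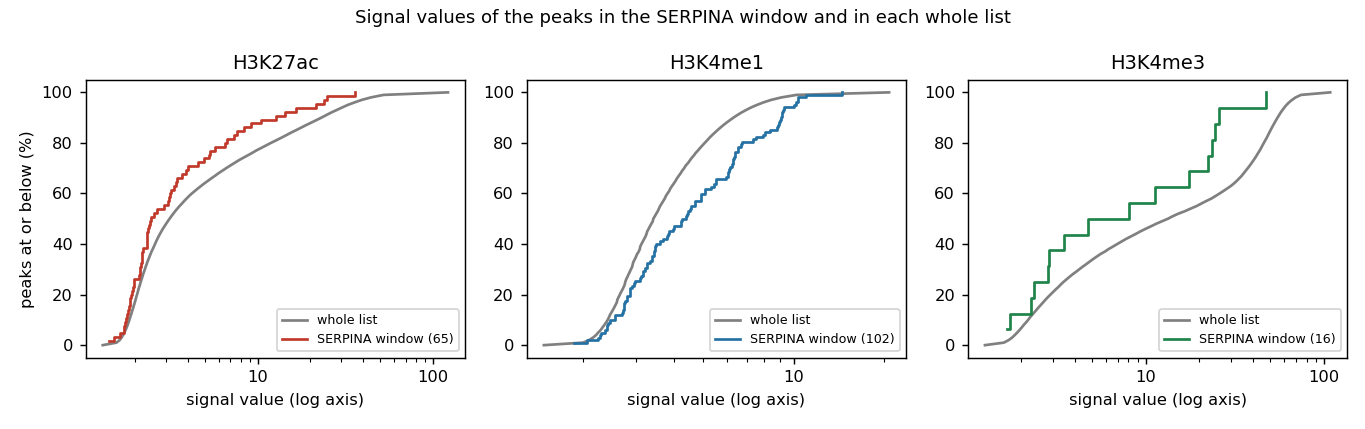
Cumulative share of peaks (%) at or below each signal value (log axis) for the peaks of the window (coloured) and the whole list of each mark (grey). The H3K4me1 curve of the window lies to the right of its list for most of its length (medians 4.32 and 3.42), while those of H3K27ac (2.46 and 3.15) and H3K4me3 (6.39 and 13.3) lie to the left.

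The peaks covered much of the window. H3K4me1 covered 60.8% of its bases, against 6.47% of chromosomes 1 to 22 and X and 6.41% of chromosome 14. H3K27ac covered 28.3%, against 3.04% and 2.72%. H3K4me3 covered 8.47%, against 1.49% and 1.45%. The ratios to the genome were 9.40, 9.31 and 5.69. Among 8196 windows of the same length that tile these chromosomes, 0 had more H3K4me1, 21 had more H3K27ac and 141 had more H3K4me3. With the windows shifted by 200 kb, 11 in place of 21 had more H3K27ac. The window was set around the cluster while the others were laid down without regard to genes, and no test was made of this rank. Chromosome 14 is described as gained in HepG2. Its shares and those of the genome were taken over full chromosome lengths, bases without known sequence included. Whether chromosome 14 has more or less coverage than the genome was therefore not settled. The part of copy number in these values was not tested.

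**Figure D4:**
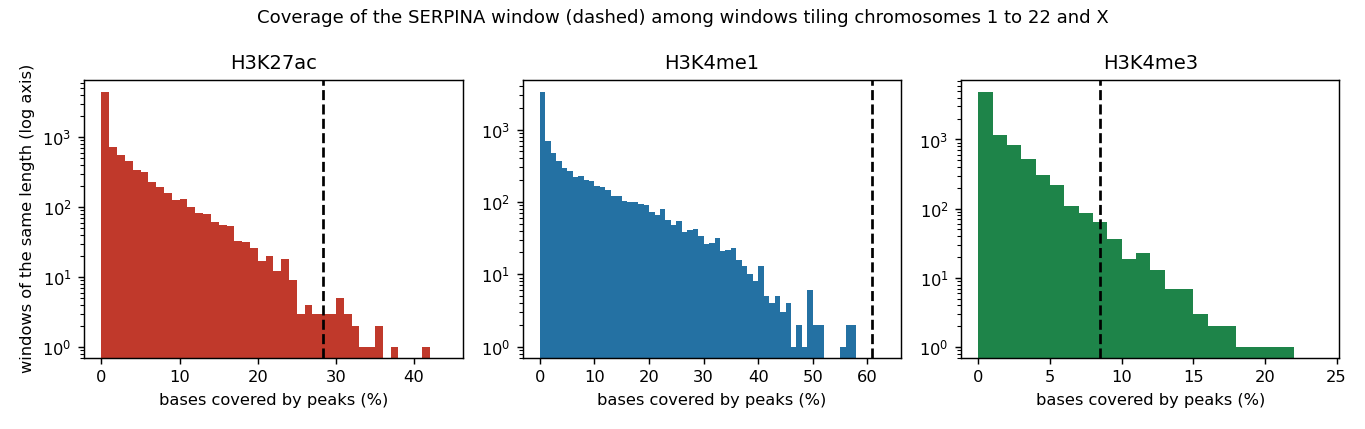
Number of windows (log axis) by the share of their bases covered by peaks (%), for 8196 windows of 370.0 kb on chromosomes 1 to 22 and X. The dashed line is the SERPINA window, at 28.3% for H3K27ac, 60.8% for H3K4me1 and 8.47% for H3K4me3.

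Coverage was spread over the window and not confined to SERPINA1 and SERPINA3. In the 103.1 kb left of SERPINA1, H3K27ac covered 26.7% and H3K4me1 57.2%. In the 221.6 kb between SERPINA1 and SERPINA3 the shares were 25.3% and 57.7%, close to those on the left. Of SERPINA3 itself, H3K27ac covered 63.5%, H3K4me1 94.0% and H3K4me3 49.1%. The 19.6 kb right of SERPINA3 stood apart: H3K4me1 covered 71.6% of it, H3K27ac 4.07%, and 0 H3K4me3 summits lay there.

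The marks overlapped within the cluster, counting 1 bp in common as overlap. All 65 of the H3K27ac peaks overlapped H3K4me1, against 87.4% of the list, and 13 of 65 (20.0%) overlapped H3K4me3, against 31.7%. The other 52 (80.0%) had H3K4me1 without H3K4me3, the combination usual at enhancers, against 59.8% of the list. None, 0 of 65, lacked both methylations, against 8.52%. H3K4me1 covered 60.8% of the window against 6.47% of the genome, and the part of this coverage in these overlaps was not tested. The 13 with H3K4me3 had a median signal value of 12.7 and covered 62.1 kb, while the 52 without had a median of 2.34 and covered 42.5 kb. The medians of these 2 kinds over the list were close to these, at 13.1 and 2.62. With an equal number of peaks taken from each list by signal value, the order turned, with 11 H3K27ac peaks of the window overlapping H3K4me3 and 6 with H3K4me1 alone. The strongest of the 52, chr14:95008041-95009596, had 10.4.

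H3K4me1 peaks were shared with H3K27ac in 46 of 102 cases (45.1%), against 33.4% of the list, and with H3K4me3 in 21 of 102 (20.6%), against 18.9%, a share near that of the list. Neither other mark was present at 56 of 102 (54.9%), against 61.6%. The strongest of these 56, chr14:94956572-94960705, had a signal value of 9.19, and was picked out after its value was seen. Of the 16 H3K4me3 peaks, 15 (93.8%) overlapped H3K27ac, against 77.5%, 16 overlapped H3K4me1, against 92.7%, and 15 overlapped both, against 74.1%. The exception was chr14:95016002-95016640, with a signal value of 2.35 and H3K4me1 alone.

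H3K4me3 summits inside H3K4me1 peaks were the rule in the cluster. In the whole list this was usual for weak H3K4me3 and rare for strong. Of the 8 summits of the window with a signal value of at least 8, a split chosen after the values had been seen, 7 lay inside an H3K4me1 peak, against 15.0% of the list, and 8 inside an H3K27ac peak, against 93.2%. The exception for H3K4me1 was SERPINA1. Strength within this range differs, so the share was also taken by bands, likewise chosen after the values had been seen. From 8 to 20, 3 of 3 lay inside H3K4me1, against 43.8% of the list. From 20 to 30 it was 4 of 4, SERPINA3 among them, against 18.8%. From 30 to 50 it was 0 of 1, against 4.98%, and the window had none at 50 or more, where the list had 2.54%. Below 8, 8 of 8 lay inside H3K4me1, against 75.3%, and 7 of 8 inside H3K27ac, against 53.7%. Peaks of H3K4me1 were also wider in the window than in the list, with median widths of 1096 and 696 bp. They covered 60.8% of the window, against 6.47% of the genome. The parts of width and coverage in these counts were not tested.

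**Figure D5:**
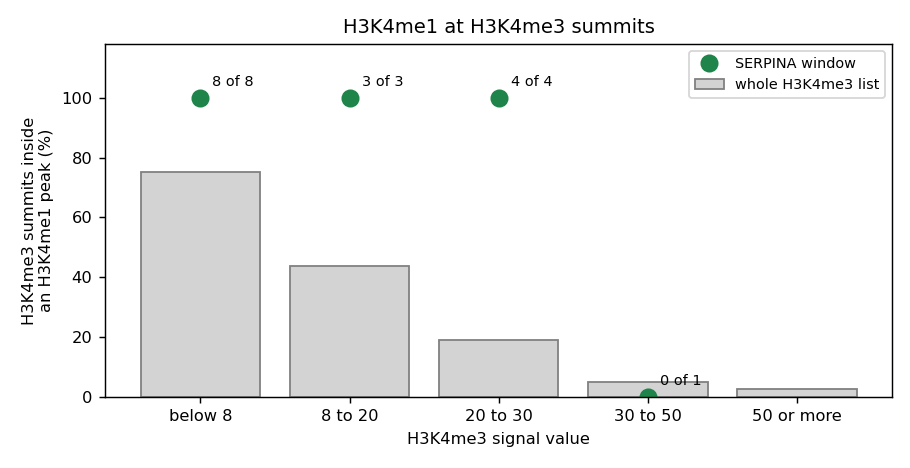
Share of H3K4me3 summits that lie inside an H3K4me1 peak (%), by band of H3K4me3 signal value, for the whole list (grey bars) and the window (green points, with counts). The list falls from 75.3% below 8 to 2.54% at 50 or more, while the window has 4 of 4 from 20 to 30 and 0 of 1 from 30 to 50.

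Acetylation fell into stretches of very unequal length. Joined where at most 10000 bp apart, the 65 H3K27ac peaks formed 9 stretches. The longest, 73.6 kb from 94805890 to 94879441, held 27 peaks, which covered 34.3 kb of it, and the SERPINA1 start. The next, 65.2 kb from 95027259 to 95092501, held 18 peaks, which covered 32.6 kb of it, the SERPINA3 start and the strongest acetylation. Another, 35.6 kb from 94755230 to 94790804, held 6 peaks, and the remaining stretches were 0.304 to 16.1 kb long. Peaks of the whole list were not joined in this way. The longest gap without H3K27ac, 37.2 kb from 94879442 to 94916669, lay to the right of SERPINA1 and held 12 H3K4me1 peaks. The longest stretch without H3K4me3, 56.7 kb from 94949737 to 95006434, held 13 H3K4me1 and 4 H3K27ac peaks. 

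At the left edge of the window, the first H3K27ac peak, chr14:94742653-94744623, had a signal value of 21.6. An H3K4me3 peak of 4.76 (chr14:94743218-94743815) and an H3K4me1 peak of 4.47 (chr14:94744229-94744603) lay inside it, and the first H3K4me1 peak of the window, with 3.16 (chr14:94742635-94743633), overlapped it. The next H3K27ac peak to the left was 92.3 kb outside the window. At the right edge, the last H3K27ac peak, chr14:95103286-95103589, had 2.57 and the last H3K4me1 peak, chr14:95107745-95108170, had 3.10. The next H3K4me1 peak began at 95110050, 0.05 kb outside the window, whereas the next H3K4me3 peak was 511.7 kb outside. No H3K4me1 peak crossed the right edge, but H3K4me1 peaks were thus called on both sides of it.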

How the data were processed

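Peaks were called with MACS2 on hg19 (GRCh37), per the submitters' processing notes. The threshold and the use made of the control libraries are not given in the sources used here, and going by the names of the lists the libraries of a mark were pooled by the authors. The deposited signal value, the −log10 q-value and the score of each peak are the authors' own. The score was not used, and the −log10 q-value only as a filter. Overlaps and shares were computed with Python 3.11.15, numpy 2.4.6 and pandas 2.3.3, with chromosome lengths from GenomeInfoDb 1.38.1. The code was tested on simulated regions. Plots used matplotlib 3.10.9.

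Named peaks were every H3K4me3 peak, the 10 strongest H3K27ac and 5 strongest H3K4me1 peaks, the first and last of each list, and those over the SERPINA1 and SERPINA3 starts. The weak H3K4me1 peak in SERPINA1, the H3K4me1 peak inside the first H3K27ac peak and the strongest peak with H3K4me1 alone were chosen after their values were seen. Marks at the other genes, other serpins, liver factors and cell type markers were not analysed here, since they need an annotation of GRCh37. A motif search is not reported here in full. The members and lists were chosen with earlier results of these data known.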

Additional observations from a re-analysis of the deposited data

How the results depend on the processing

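Over 14 results, 55 alternative values were computed, of which 36 stayed within 1.5 times the main value and 19 moved further. No paired analysis was possible because the lists pool the libraries, and for the same reason no replicate could be left out. The stronger 50% of each list gave 27 H3K27ac, 66 H3K4me1 and 6 H3K4me3 peaks, with 6 H3K27ac peaks overlapping H3K4me3 and 21 with H3K4me1 only. Equal numbers of peaks per list (24446) gave 18 H3K27ac and 35 H3K4me1 peaks, 6 H3K27ac peaks with H3K4me1 only and 18 H3K4me1 peaks without another mark. Under that setting H3K27ac peaks overlapping H3K4me3 numbered 11, so that the order of the 2 kinds turned around. Joining peaks within 1000 bp gave 32 H3K27ac and 37 H3K4me1 peaks, of which 20 H3K27ac peaks had H3K4me1 only and 15 H3K4me1 peaks had no other mark. A −log10 q-value of at least 5 gave 33 H3K27ac peaks with H3K4me1 only, and 20 were counted when each peak was replaced by its summit with 200 bp on each side. With 50% of the peak covered, 8 H3K27ac peaks overlapped H3K4me3. Fewer or joined peaks follow from how the filters and joining are built. Coverage by H3K27ac ranged from 21.1% to 31.6%. Shifting the windows of the same length by 100 or 200 kb, a reach of 2000 bp around starts, and the q-value filter at starts, were chosen after seeing the data. The shifted windows left 0 with more H3K4me1, and 18 and 11 with more H3K27ac. With the q-value filter, 1 gene (SERPINA3) in place of 2 had H3K4me3, and all 3 marks, within 1000 bp of its start. For SERPINA1 only the outer start was used. The strong H3K4me3 peak inside SERPINA1, with a −log10 q-value of 3797, passed the filter but lay beyond this reach. At 2000 bp, SERPINA1 and SERPINA3 had all 3 marks, as at 1000 bp. The H3K4me3 peak with the highest signal value near the outer SERPINA1 start then became the strong one inside the gene.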

Other observations

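The sequence content of the listed promoters was also counted. The 13 RefSeq promoters of the 9 genes had a median of 4 CpG dinucleotides in 300 bases, against 14 over all 35116 promoters. The inner start of SERPINA1 had the most, and SERPINA5 came next with 9, while SERPINA9 and SERPINA11 had 1 each.

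Short motifs were searched on both strands. The STAT site TTCNNNGAA was found at SERPINA11, SERPINA5 and SERPINA6, 1 promoter of each and 3 of 13 promoters in all, and in 7.66% of all promoters. TATAAA was found in 1 of the 13, and in 11.5% of all promoters. That match lay at the innermost listed SERPINA12 start, from base 29 to base 34 after it, downstream of where a TATA box acts. The C/EBP site TTGCNNAAT and the HNF4 site CAAAGTCCA were found in 0 of 13, and in 2.66% and 0.384% of all promoters. With shares this low, 0 of 13 does not set the cluster apart.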
